A study of Mus musculus with 12 samples.

Results

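Brown fat of mice kept at 6 °C, 22 °C or 30 °C was examined for the transcripts of its potassium channel genes. The genes are the rows of the deposited count table whose symbol starts with Kcn and that reached at least 10 counts in at least 4 of the 12 libraries. There were 44 such genes among 95 Kcn rows and 38924 genes in all. By their symbols, 21 encode voltage-gated pores, 6 tandem-pore channels, 6 inward rectifiers, 3 calcium-activated pores and 7 auxiliary subunits, and Kcnrg encodes a regulator of channel assembly. The choice rests on the count level itself. Kcng2 stood just inside it with 4 libraries at 10 counts or more, and Kcnd2, Kcnh4 and Kcnma1 with 5 each. Kcnf1 and Kcnt2 stood just outside with 3 libraries each and 72 and 131 counts over the 12 libraries. The choice used no comparison of temperatures.

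All mice were wild-type C57BL/6J, 14 weeks old after 4 weeks at their temperature, with 4 mice at 6 °C (severe cold), 4 at 22 °C (mild cold) and 4 at 30 °C, which is near thermoneutral for a mouse. Total RNA of interscapular brown fat, the depot between the shoulder blades, was sequenced with 1 library per mouse. The comparisons ask how the depot adapts to each temperature. At 30 °C, mice 1 and 2 were matched to numbered columns of the table. For the other 2 libraries of that group the column name has the group's letter but a number found in no title. They were placed at 30 °C on that letter, are named mouse A and mouse B, and may or may not be labelled mice.

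Potassium channels let potassium leave the cell and so hold the membrane at a negative voltage or bring it back there after depolarisation. Tandem-pore channels carry a steady leak, inward rectifiers hold the resting voltage, voltage-gated pores open on depolarisation, and calcium-activated pores open when calcium rises inside the cell. Auxiliary subunits alter the gating or traffic of these pores. In brown adipocytes noradrenaline depolarises the membrane, and Kcnk3, an acid-sensitive tandem-pore channel, is known from mouse knockouts as a brake on heat production there.

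Total counts were 18290162 to 32513051 per library, except 86438386 in 22 °C mouse 3. This deep library was numbered 8846, while the numbers of the rest ran from 7509 to 7520. It also held counts of Kcnmb3 (50), Kcnv1 (16) and Kcnh5 (13), which were at 0 in every other library. Why it differed was not tested, and it enters every comparison with 22 °C unless left out. Markers of other cell types differed between libraries. The summed level of 14 macrophage markers was 253 to 509 CPM (counts scaled to library size, with TMM factors) at 6 °C, 157 to 220 at 22 °C, and 547, 562, 1446 and 1757 in 30 °C mice 1, 2, A and B. The sum of 16 skeletal muscle markers was 1951, 351, 37.8 and 1414 CPM in 6 °C mice 1 to 4, 1011 to 3882 CPM at 22 °C and 1006 to 5358 CPM at 30 °C, with the highest value in 30 °C mouse 1. The 8 brown adipocyte markers summed to 22721 to 25011 CPM at 6 °C, 16499 to 19111 at 22 °C and 10576 to 12367 at 30 °C. Such a sum follows its most abundant genes. By the test given below, 2 of the 8 were higher (all genes: 16.9%) and 2 lower (17.4%) at 6 °C against 22 °C. Their median log2 fold change there was -0.08. At 6 °C against 30 °C 5 were higher (all genes: 25.3%) and 1 lower (31.5%). Fibroblast and preadipocyte markers summed to 863 to 1074 CPM at 6 °C, 1063 to 1585 at 22 °C and 2714 to 5188 at 30 °C. Endothelial markers summed to 1183 to 1255, 1075 to 1235 and 1630 to 1940 CPM at 6, 22 and 30 °C. No gene of these lists was at 0 in all libraries. In whole tissue, fewer cells of a type and less RNA per cell cannot be told apart, and the part of cell makeup in the results below was not tested unless a value is given.

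Of the 44 genes, 42 passed the filter on low counts (all but Kcng2 and Kcnmb1). The counts of calls below include Kcnd2 and Kcnj10, which reached 10 counts in 4 libraries only through the group where they were high. A gene is called changed at an adjusted p under 0.05 in the quasi-likelihood test of edgeR, with p-values adjusted by Benjamini-Hochberg over the 14870 genes tested, and every adjusted p below is of that test. Over the 3 temperatures 26 of the 42 genes changed, beside 65.7% of all tested genes. At 6 °C against 30 °C 18 of 42 changed (all genes: 56.8%), 6 of them higher (all genes: 25.3%) and 12 lower (31.5%). Mild cold (22 °C against 30 °C) gave 18 changed genes (44.6%), 8 higher (21.8%) and 10 lower (22.8%). Between 6 °C and 22 °C 15 changed (34.2%), 7 higher (16.9%) and 8 lower (17.4%). Groups did not overlap for 6 higher (all genes: 24.1%) and 11 lower (27.4%) channel genes at 6 °C against 30 °C. The counts without overlap were 6 higher (18.9%) and 9 lower (20.0%) at 22 °C against 30 °C, and 7 higher (17.8%) and 7 lower (17.1%) at 6 °C against 22 °C. The shares of channel genes called thus stood below or near those of all genes, and the family as a whole was not set apart by its number of calls. The median log2 fold change at 6 °C against 30 °C was -0.50 over the 42 genes and -0.11 over all tested genes. The corresponding medians were -0.13 and -0.02 at 22 °C against 30 °C and -0.37 and -0.03 at 6 °C against 22 °C. Comparisons that share a temperature share its libraries.

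**Figure D1:**
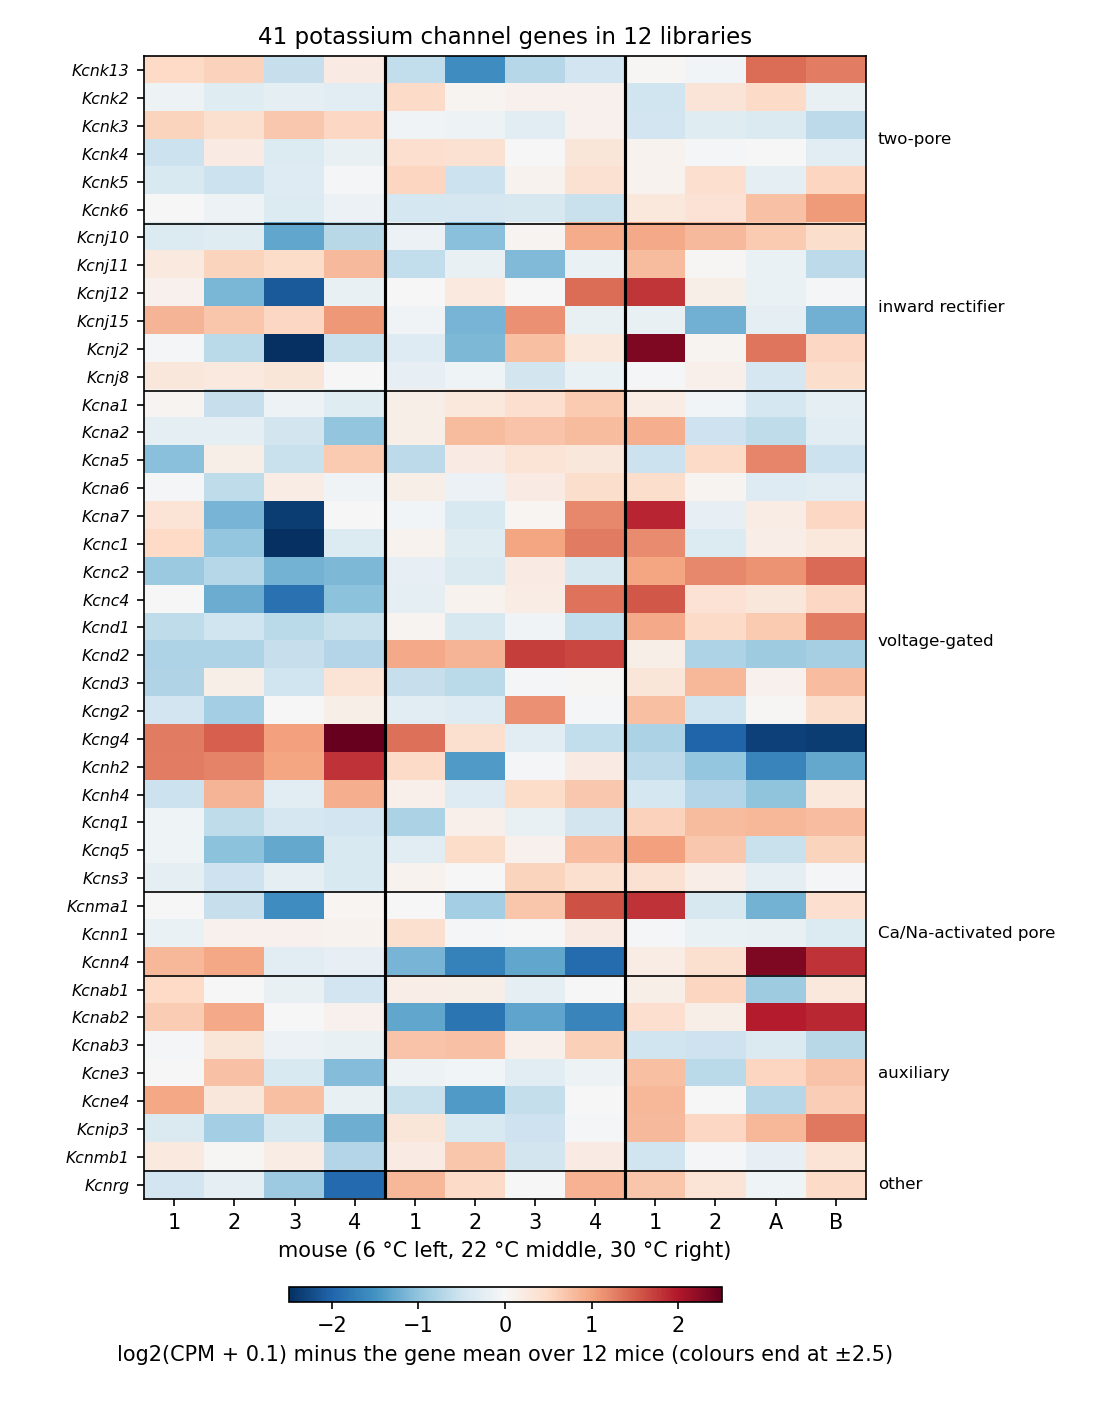
Level of 41 potassium channel genes in each of the 12 libraries, as log2(CPM + 0.1) minus the mean of the gene over the 12 mice, with genes in rows grouped by class and mice in columns (6 °C left, 22 °C middle, 30 °C right). Kcng4 and Kcnh2 are high at 6 °C and low at 30 °C, Kcnab2 and Kcnn4 are low at 22 °C and high in 30 °C mice A and B, and Kcnj2, Kcna7 and Kcnj12 are lowest in 6 °C mouse 3 and highest in 30 °C mouse 1.

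Among the 6 genes that were higher at 6 °C than at 30 °C, RefSeq promoter windows (build GRCm38.p6, 250 bases before to 50 after the start site) were at hand for Kcng4, Kcnh2 and Kcnj15. They are shown because these genes share that direction, with the window of Kcnj8, the inward rectifier of highest level, beside them. In the other comparisons the genes differed, and Kcnj15 was called in neither. The Kcng4 window is chr8:119635631-119635930 on the minus strand. The Kcnh2 window is chr5:24329542-24329841 on the minus strand. It lies at a start site inside the gene, which spans chr5:24319589-24351604, and the 5′ end of the gene was not examined. The Kcnj15 window is chr16:95257308-95257607 on the plus strand, and that of Kcnj8 is chr6:142571565-142571864 on the minus strand. Each is written 5′ to 3′ on the strand of the gene, and capitals mark the cAMP response element core TGACG, here as its reverse complement.
Kcng4: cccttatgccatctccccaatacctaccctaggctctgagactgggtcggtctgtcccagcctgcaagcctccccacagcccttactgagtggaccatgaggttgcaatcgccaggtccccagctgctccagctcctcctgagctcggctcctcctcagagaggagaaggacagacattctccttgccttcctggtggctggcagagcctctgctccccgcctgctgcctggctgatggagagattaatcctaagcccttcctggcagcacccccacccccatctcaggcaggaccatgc
Kcnh2: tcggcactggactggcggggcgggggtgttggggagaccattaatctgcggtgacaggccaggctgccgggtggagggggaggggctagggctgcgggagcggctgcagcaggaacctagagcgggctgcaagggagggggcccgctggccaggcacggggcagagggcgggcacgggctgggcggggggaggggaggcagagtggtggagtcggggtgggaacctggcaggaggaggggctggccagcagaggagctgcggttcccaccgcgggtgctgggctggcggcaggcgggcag
Kcnj15: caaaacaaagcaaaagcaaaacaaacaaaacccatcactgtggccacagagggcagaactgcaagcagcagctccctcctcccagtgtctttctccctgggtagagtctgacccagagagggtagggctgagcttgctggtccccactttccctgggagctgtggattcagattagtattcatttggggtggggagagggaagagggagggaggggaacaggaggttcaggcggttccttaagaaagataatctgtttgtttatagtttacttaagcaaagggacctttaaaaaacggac
Kcnj8: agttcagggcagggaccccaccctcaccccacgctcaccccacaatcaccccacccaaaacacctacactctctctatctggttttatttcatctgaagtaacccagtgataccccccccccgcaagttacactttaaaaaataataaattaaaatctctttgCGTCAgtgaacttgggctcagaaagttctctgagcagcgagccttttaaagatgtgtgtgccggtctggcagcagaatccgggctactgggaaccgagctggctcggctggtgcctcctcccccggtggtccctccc
Motifs were searched on both strands. TGACG stood in 20.8% of the 32817 RefSeq windows and in 8 of the 49 windows of the 33 channel genes that have one. The nuclear receptor motif AGGTCA stood in 16.3% of all windows and in 0 of the 49, and its direct repeat with 1 base between the copies, which contains it, in 0.0396% and 0 of 49. The palindrome of early B-cell factor stood in 0.905% and in 0 of 49, and the E-box CACGTG in 7.15% and in 7 of 49. None of these motifs occurs in the windows of Kcng4, Kcnh2 and Kcnj15. In the Kcnj8 window TGACG lies on the opposite strand with its first base at -87 from the start site. Several windows of 1 gene can overlap, and a match describes the letters only.

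Kcnk3 carried most of the channel transcripts at every temperature and was higher with each colder step. Its level was 705, 634, 771 and 691 CPM in 6 °C mice 1 to 4, 452, 443, 402 and 523 CPM in 22 °C mice 1 to 4, and 347, 393, 377 and 307 CPM in 30 °C mice 1, 2, A and B. No value of a colder group overlapped those of a warmer one, an order of all 3 groups that Kcnk3 alone among the 42 tested channel genes showed in the upward direction and that 4.99% of all tested genes showed. Kcnk3 averaged 700 ± 56.0 CPM at 6 °C, 455 ± 50.3 CPM at 22 °C and 356 ± 37.8 CPM at 30 °C (SD, n = 4 each). The log2 fold change was 0.97 ± 0.10 (SE) at 6 °C against 30 °C (1.97-fold, adjusted p = 6.12e-06) and 0.62 ± 0.10 at 6 °C against 22 °C (adjusted p = 0.00068). At 22 °C against 30 °C it was 0.35 ± 0.10 (adjusted p = 0.0129). This call was lost when libraries were scaled by total counts only (0.10, adjusted p = 0.363) and without mice A and B (0.29, adjusted p = 0.0804). The 2 steps did not differ by the test (adjusted p = 0.276). The gene (ENSMUSG00000049265) lies at chr5:30588170-30625271 on the plus strand of GRCm38, and 5.76% of its exon length lies under Gm9899 on the opposite strand, whose reads cannot be told apart here.

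Compared per kb of exon, Kcnk3 stood far above every other channel gene. Its length-scaled level was 176 CPM per kb at 6 °C, 114 at 22 °C and 89.6 at 30 °C. Among the 14749 tested genes with an exon length, it ranked 211 at 6 °C, 311 at 22 °C and 320 at 30 °C. The next gene was Kcnj8 with 11.5, 8.46 and 10.3 CPM per kb at 6, 22 and 30 °C, followed on the mean of the 12 libraries by Kcna5 (5.72) and Kcns3 (4.75), with Kcnn1 at 2.30. In all, 11 genes lay above 1 CPM per kb, 28 between 0.1 and 1, and 5 below 0.1. Kcnk3 made up 79.2% ± 2.39 of the length-scaled sum of the 44 genes at 6 °C, 72.5% ± 1.64 at 22 °C and 65.5% ± 3.38 at 30 °C (SD, n = 4 each). The sum of the other 43 genes was 46.1 ± 4.03, 43.2 ± 2.65 and 46.9 ± 2.99 CPM per kb at 6, 22 and 30 °C, so the spread between mice covered its differences.

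**Figure D2:**
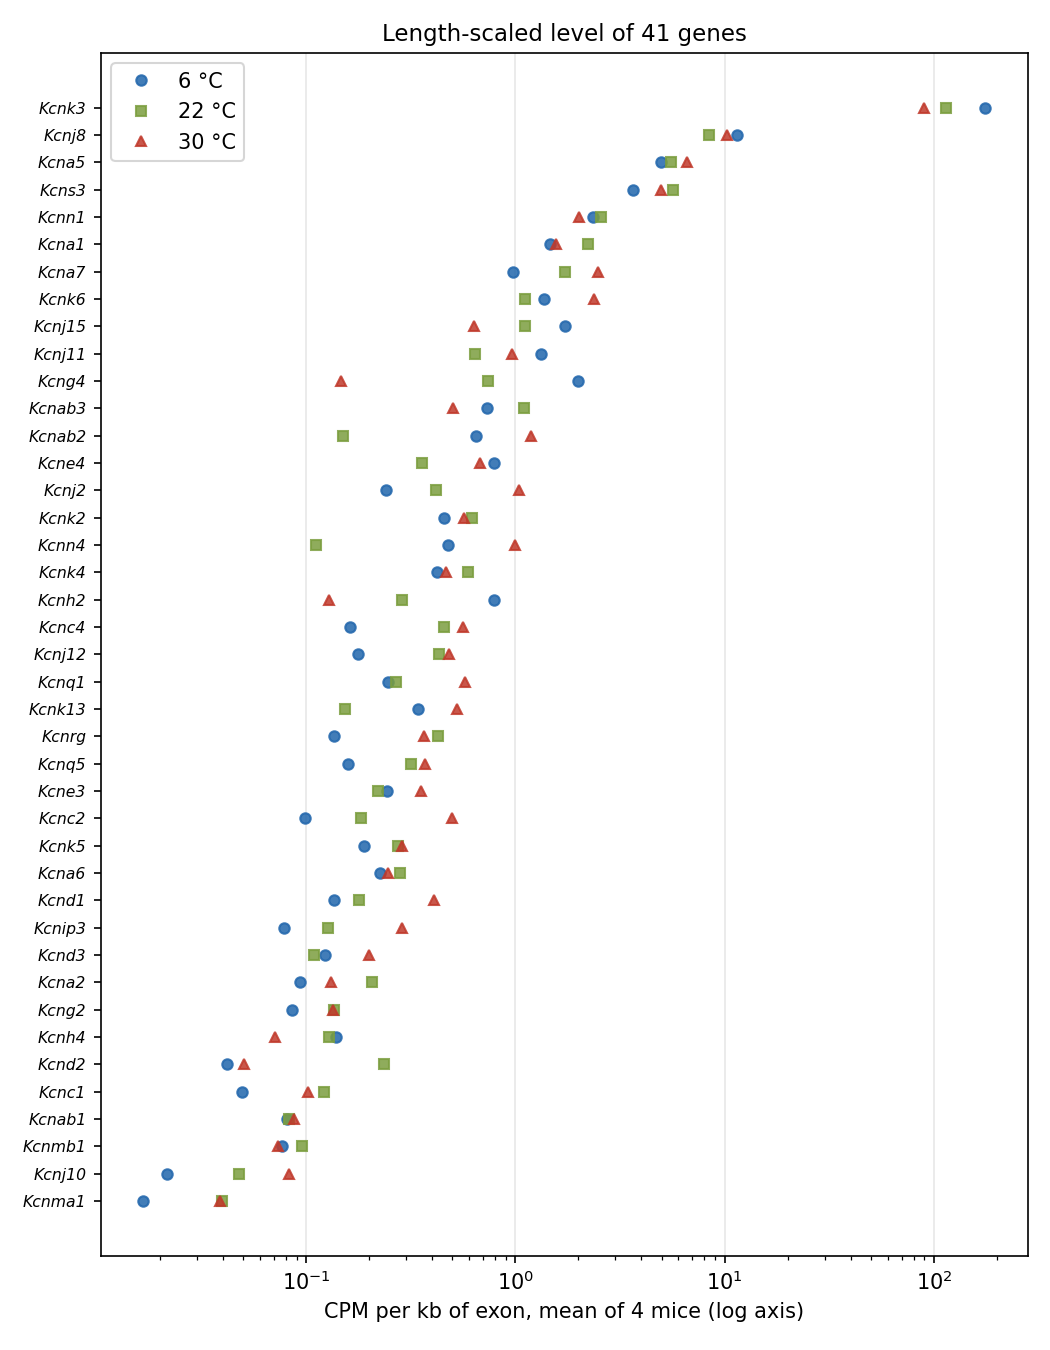
Length-scaled level of 41 channel genes on a log axis (CPM per kb of exon), each point the mean of 4 mice at 6 °C (circle), 22 °C (square) or 30 °C (triangle). Kcnk3 stands at 176, 114 and 89.6 at 6, 22 and 30 °C, and Kcnj8 follows at 11.5, 8.46 and 10.3.

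The other tandem-pore genes moved in other ways. Kcnk6, a weakly rectifying leak channel also found in macrophages, was lower in both cold groups. Its level was 6.37, 5.75, 4.95 and 5.67 CPM in 6 °C mice 1 to 4, 4.27 to 4.78 CPM at 22 °C, and 7.59, 8.12, 10.5 and 13.3 CPM in 30 °C mice 1, 2, A and B. The 30 °C mice lay above all others, with mice A and B highest. Kcnk6 had a log2 fold change of -0.80 ± 0.17 at 6 °C against 30 °C (adjusted p = 0.00119; -0.45 with adjusted p = 0.0244 when mice A and B were left out). With the mouse number as a replicate block in the 10 numbered libraries, this call was lost (-0.40, adjusted p = 0.0998). The change was -1.10 ± 0.17 at 22 °C against 30 °C (adjusted p = 0.00023; -0.77 with adjusted p = 0.00256 when mice A and B were left out). Its steps differed (adjusted p = 0.0041). Kcnk13, a leak channel known from microglia and macrophages, fell at 22 °C against 30 °C by 1.76 on the log2 scale (SE 0.42, adjusted p = 0.00449). It had 0.239 to 0.616 CPM at 22 °C and 0.915, 0.844, 2.52 and 2.30 CPM in 30 °C mice 1, 2, A and B. That change was -0.85 (adjusted p = 0.142) when mice A and B were left out. Between 6 °C and 22 °C its change of 1.13 ± 0.44 (adjusted p = 0.0618) passed without 6 °C mouse 3 (1.35, adjusted p = 0.0367) or without 30 °C mouse 1 or 2 (adjusted p of 0.0488 and 0.0477). The stretch-sensitive leak channels Kcnk2 and Kcnk4 and the alkaline-sensitive Kcnk5 passed no pairwise test, with log2 fold changes of -0.32, -0.14 and -0.62 at 6 °C against 30 °C.

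Kcng4 encodes a voltage-gated subunit that forms no channel alone, and it showed the widest change of the channel genes at 6 °C against 30 °C. It had 5.20, 5.98, 4.28 and 15.0 CPM in 6 °C mice 1 to 4, 5.49, 2.74, 1.69 and 1.32 CPM in 22 °C mice 1 to 4, and 1.15, 0.442, 0.330 and 0.315 CPM in 30 °C mice 1, 2, A and B. Mouse 4 was high among the 6 °C mice and mouse 1 among the 30 °C mice, and no cold mouse fell into the 30 °C range. Kcng4 rose by 3.75 ± 0.63 on the log2 scale at 6 °C against 30 °C (13.5-fold, adjusted p = 0.000403), and by 4.38 without 30 °C mouse 1. Mild cold against 30 °C gave 2.30 ± 0.63 (adjusted p = 0.0112), 2.92 without 30 °C mouse 1, and lost the call without mice A and B (1.75, adjusted p = 0.141). The change of 1.46 ± 0.55 at 6 °C against 22 °C (adjusted p = 0.0604) passed without 22 °C mouse 1 (2.01, adjusted p = 0.0174) or without 30 °C mouse 1 (1.46, adjusted p = 0.0426).

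Kcns3, another subunit that forms no channel alone, was lower at 6 °C. It had 12.5, 10.1, 12.3 and 11.3 CPM in 6 °C mice 1 to 4, 14.7 to 21.7 CPM at 22 °C and 12.6 to 19.2 CPM at 30 °C, with all 6 °C mice below all others. Its log2 fold change was -0.64 ± 0.15 at 6 °C against 22 °C (adjusted p = 0.00605) and -0.44 ± 0.15 at 6 °C against 30 °C (adjusted p = 0.024). The change against 30 °C missed the threshold without 6 °C mouse 2, 6 °C mouse 4, 30 °C mouse 1 or 30 °C mouse 2 (-0.37, -0.42, -0.32 and -0.41, with adjusted p of 0.0719, 0.0535, 0.0792 and 0.0533). Kcng2, the remaining subunit of this kind, was not tested and averaged 0.256, 0.408 and 0.403 CPM at 6, 22 and 30 °C.

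Kcnh2, which encodes the slowly closing channel that ends the cardiac action potential, rose most at the lowest temperature. It had 3.61, 3.51, 2.94 and 5.30 CPM in 6 °C mice 1 to 4, 2.03, 0.477, 1.39 and 1.67 CPM in 22 °C mice 1 to 4, and 0.881, 0.683, 0.390 and 0.536 CPM in 30 °C mice 1, 2, A and B. The 6 °C mice lay above all others, and 22 °C mouse 2 lay within the 30 °C range. Kcnh2 had log2 fold changes of 2.62 ± 0.37 at 6 °C against 30 °C (6.15-fold, adjusted p = 5.82e-05) and 1.44 ± 0.34 at 6 °C against 22 °C (adjusted p = 0.00628). At 22 °C against 30 °C it was 1.18 ± 0.37 (adjusted p = 0.0201). The call was lost without 22 °C mouse 1 (0.98, adjusted p = 0.0597), mouse A (1.01, adjusted p = 0.0587), mouse B (1.12, adjusted p = 0.0558) or both A and B (0.84, adjusted p = 0.19). Total counts as the scale gave 0.93 (adjusted p = 0.0588). Its relative Kcnh4 stayed between 0.150 and 0.839 CPM in all mice and passed no test.

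**Figure D3:**
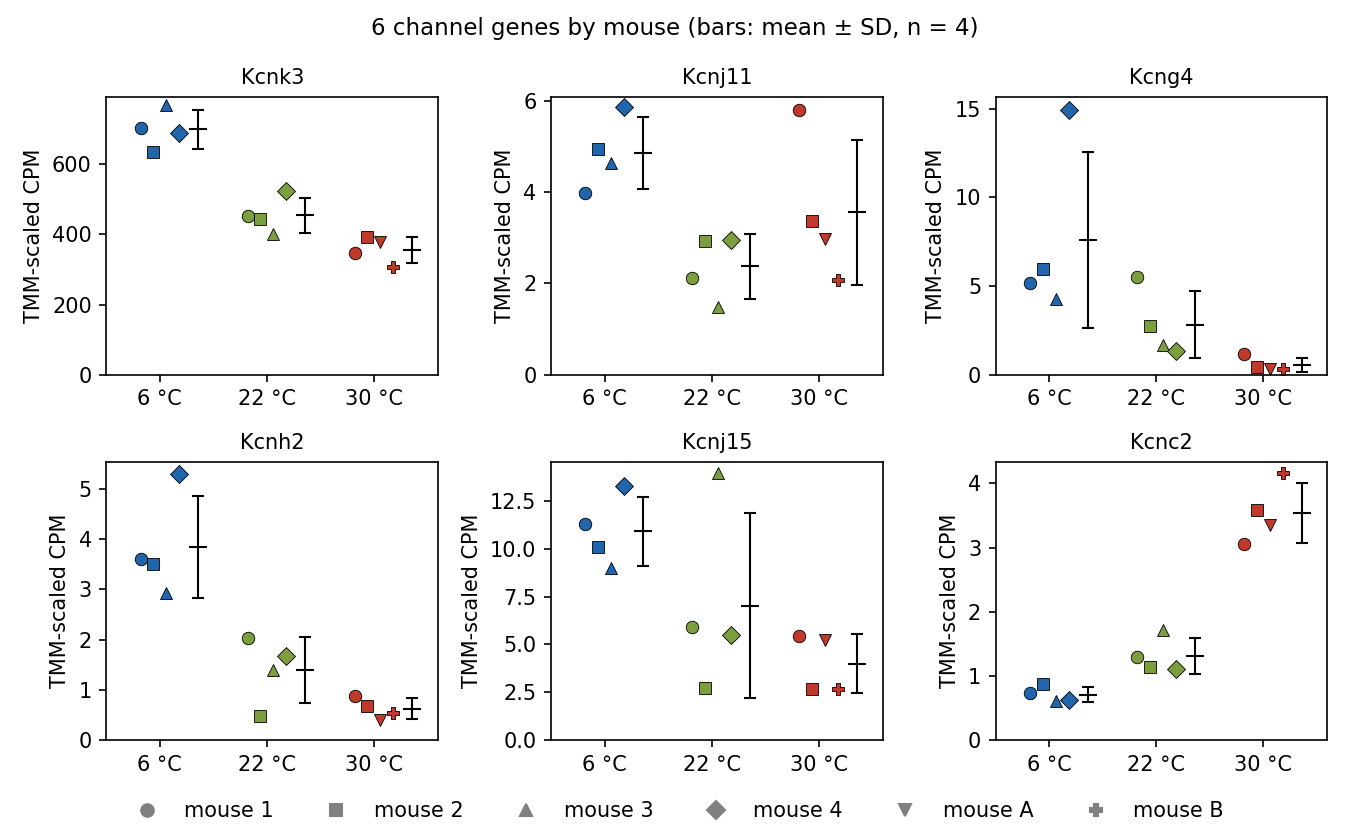
Level of 6 channel genes in each mouse (TMM-scaled CPM, axes from 0), with symbols for the mouse and bars for the mean ± SD of 4 mice. Kcnk3, Kcng4 and Kcnh2 are highest at 6 °C, Kcnj15 is high in 22 °C mouse 3 (14.0 CPM), and Kcnc2 is highest at 30 °C (3.05 to 4.16 CPM).

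Other voltage-gated genes were lower in the cold. Kcnc2, a fast pore of rapidly firing neurons, had 0.731, 0.869, 0.602 and 0.630 CPM in 6 °C mice 1 to 4, 1.29, 1.13, 1.72 and 1.10 CPM in 22 °C mice 1 to 4, and 3.05, 3.58, 3.36 and 4.16 CPM in 30 °C mice 1, 2, A and B. The 3 groups stood apart in the order of temperature, as in 2.47% of all tested genes, and no other channel gene showed this downward order. Its log2 fold change was -2.31 ± 0.21 at 6 °C against 30 °C (adjusted p = 1.95e-06), -1.40 ± 0.20 at 22 °C against 30 °C (adjusted p = 0.000146) and -0.91 ± 0.22 at 6 °C against 22 °C (adjusted p = 0.00626).

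Kcnd1, a fast-inactivating pore, and Kcnq1, a slow pore of heart and epithelia, fell in both cold groups with no detectable further difference between 6 and 22 °C. Kcnd1 had 0.690, 0.769, 0.672 and 0.734 CPM in 6 °C mice 1 to 4, 1.19, 0.835, 1.06 and 0.704 CPM in 22 °C mice 1 to 4, and 2.27, 1.61, 1.83 and 2.93 CPM in 30 °C mice 1, 2, A and B. Its log2 fold change was -1.59 ± 0.24 at 6 °C (adjusted p = 0.000109) and -1.17 ± 0.23 at 22 °C (adjusted p = 0.00127), both against 30 °C. With the mouse number as a replicate block in the 10 numbered libraries, the call at 22 °C was lost (-0.96, adjusted p = 0.0577). Kcnq1 had 1.26, 0.836, 0.991 and 0.944 CPM in 6 °C mice 1 to 4, 0.742, 1.49, 1.18 and 0.968 CPM in 22 °C mice 1 to 4, and 2.07, 2.41, 2.49 and 2.39 CPM in 30 °C mice 1, 2, A and B. All 30 °C mice lay above the cold mice for both genes. The log2 fold changes of Kcnq1 against 30 °C were -1.21 ± 0.22 at 6 °C (adjusted p = 0.000428) and -1.09 ± 0.22 at 22 °C (adjusted p = 0.00127). The call of Kcnq1 at 22 °C was also lost with the replicate block (adjusted p = 0.0725). Of the exon length of Kcnq1, 2.96% lies under its antisense transcript Kcnq1ot1. Kcnip3, a calcium-binding partner of the Kcnd pores with a mean under 1 CPM, fell by 1.84 at 6 °C (adjusted p = 0.000412) and by 1.23 at 22 °C (adjusted p = 0.00591; without mice A and B, -0.98 with adjusted p = 0.0748) on the log2 scale against 30 °C.

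Kcnq5 encodes a pore of the slow M-type current. Kcnq5 had 0.743 to 1.79 CPM at 6 °C, 1.58 to 3.39 CPM at 22 °C and 1.29 to 4.07 CPM at 30 °C. Its log2 fold change at 6 °C against 30 °C was -1.23 ± 0.37 (adjusted p = 0.0128). With the skeletal muscle marker sum as a covariate it was -0.73 (adjusted p = 0.0753). Against 22 °C the 6 °C level differed by -1.0 ± 0.37 (adjusted p = 0.0548), and passed without 6 °C mouse 1, 22 °C mouse 1, 30 °C mouse 1 or mouse A (-1.0 to -1.25, adjusted p of 0.0259 to 0.0473).

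A few channel genes were highest at 22 °C. Kcnd2, a fast-inactivating pore, had 0.203, 0.201, 0.248 and 0.210 CPM in 6 °C mice 1 to 4, 0.891, 0.835, 1.60 and 1.54 CPM in 22 °C mice 1 to 4, and 0.474, 0.201, 0.180 and 0.189 CPM in 30 °C mice 1, 2, A and B. All 22 °C mice lay above all others, a pattern that 3.5% of all tested genes shared and that no other channel gene showed. Kcnd2 was picked out after its values were seen. It reached 10 counts in 4 of 4 libraries at 22 °C, 0 of 4 at 6 °C and 1 of 4 at 30 °C, so that it entered the test through the group where it was high. As a description, with no test, its log2 fold change was 2.25 at 22 °C against 30 °C and -2.51 at 6 °C against 22 °C.

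Kcna1 and Kcna2, low-threshold pores of axons, and Kcnab3, a cytoplasmic subunit of such pores, also had lower levels at 6 °C than at 22 °C. Kcna1 had 5.42 to 8.57 CPM at 6 °C, 9.01 to 12.9 CPM at 22 °C and 5.96 to 9.22 CPM at 30 °C. It was lower at 6 °C than at 22 °C by 0.61 on the log2 scale (SE 0.17, adjusted p = 0.0157; without 22 °C mouse 4, -0.50 with adjusted p = 0.0525). It was higher at 22 °C than at 30 °C by 0.52 (SE 0.17, adjusted p = 0.0253). That second call was lost without 22 °C mouse 3 or 4 or without mouse A or B (0.42 to 0.50, adjusted p of 0.0523 to 0.0802), and with total counts as the scale (0.26, adjusted p = 0.235). Kcna2 was lower at 6 °C than at 22 °C (-1.14 ± 0.35, adjusted p = 0.0241). It had 0.734 to 1.30 CPM at 6 °C, 1.73 to 2.77 CPM at 22 °C, and 3.02, 1.05, 0.959 and 1.26 CPM in 30 °C mice 1, 2, A and B. Without 6 °C mouse 3 or 4 or 22 °C mouse 2, 3 or 4 its adjusted p was 0.0513 to 0.0644. Without 30 °C mouse 1, Kcna2 was also higher at 22 °C than at 30 °C (1.18, adjusted p = 0.00232; 0.65 with adjusted p = 0.139 in all libraries).

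Kcnab3 had 1.84 to 2.64 CPM at 6 °C, 2.32 to 3.58 CPM at 22 °C and 1.26 to 1.62 CPM at 30 °C. Its log2 fold change was 1.11 ± 0.19 at 22 °C against 30 °C (adjusted p = 0.000531). The value at 6 °C against 30 °C was 0.55 ± 0.19 (adjusted p = 0.0285), lost without 6 °C mouse 2, 30 °C mouse 2 or mouse B (0.42 to 0.55, adjusted p of 0.0522 to 0.0993) and with total counts as the scale (0.23, adjusted p = 0.289). Against 22 °C the 6 °C mice differed by -0.57 ± 0.19 (adjusted p = 0.0339), lost without 6 °C mouse 1, 3 or 4 or 22 °C mouse 1, 2 or 4 (adjusted p of 0.0746 to 0.0887). Of its exon length 5.13% lies under its antisense transcript Kcnab3os. The steps differed for Kcna1, Kcna2, Kcnab3, Kcns3, Kcnk6, Kcnk13, Kcnab2, Kcnn4, Kcnj11 and Kcne4. With Kcnd2, which entered the test through 22 °C alone, these are 11 of 42 genes, 6 with the larger value in the colder step (all genes: 14.3%) and 5 with the smaller (15.0%), against 29.3% of all tested genes in either direction.

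Kcna1 and Kcna6 lie between 126640397 and 126740674 on chromosome 6, next to Kcna5, a pore of heart and vascular muscle at chr6:126532551-126535412. Neither neighbour was called, though the means of Kcna6 had the order of those of Kcna1, highest at 22 °C and lowest at 6 °C. The log2 fold changes of Kcna6 were 0.20 at 22 °C against 30 °C (adjusted p = 0.545) and -0.33 at 6 °C against 22 °C (adjusted p = 0.327). Kcna5 ranged over 7.15 to 23.3 CPM at 6 °C, 9.4 to 18.9 CPM at 22 °C and 10.2 to 34.7 CPM at 30 °C and passed no test. Its spread between mice of 1 group exceeded the differences between groups. Kcna6 had 0.903 to 1.66, 1.31 to 2.02 and 1.14 to 2.00 CPM at 6, 22 and 30 °C and passed no test. Of its exons 39.6% of the length lies under Gm26673 on the opposite strand.

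**Figure D4:**
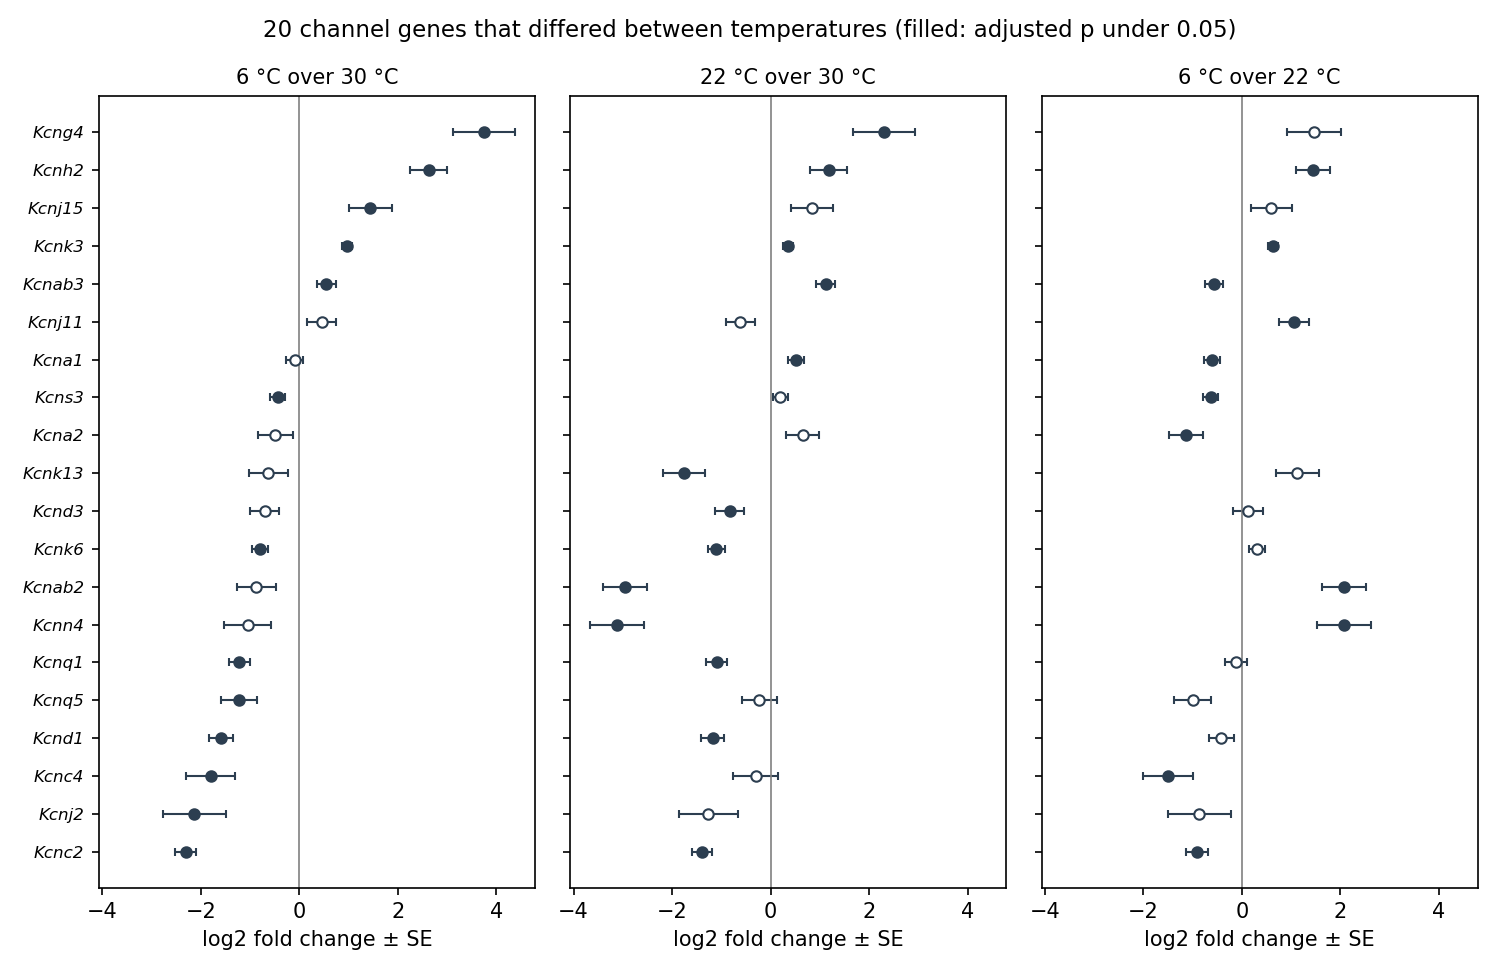
Log2 fold change ± SE of 20 channel genes that changed over the 3 temperatures at a mean of at least 1 CPM, for 6 °C over 30 °C, 22 °C over 30 °C and 6 °C over 22 °C, with filled points at an adjusted p under 0.05. Kcng4 (3.75) and Kcnh2 (2.62) lead the first panel, and Kcnn4 (-3.12) and Kcnab2 (-2.95) are lowest in the second.

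The inward rectifiers include both pores of the ATP-sensitive potassium channel, Kcnj8 and Kcnj11, which open when ATP falls and need a sulfonylurea receptor, Abcc9 or Abcc8, as partner. Each pore gene lies beside a receptor gene, Kcnj8 16247 bases from Abcc9 on chromosome 6 and Kcnj11 3758 bases from Abcc8 on chromosome 7. All 4 genes were higher at 6 °C than at 22 °C. Kcnj11 had 3.98, 4.95, 4.64 and 5.88 CPM in 6 °C mice 1 to 4, 2.13, 2.92, 1.49 and 2.95 CPM in 22 °C mice 1 to 4, and 5.79, 3.38, 2.97 and 2.08 CPM in 30 °C mice 1, 2, A and B. The 6 °C mice lay above the 22 °C mice and overlapped those at 30 °C, where mouse 1 was high. Its log2 fold change was 1.06 ± 0.30 at 6 °C against 22 °C (adjusted p = 0.0165). Against 30 °C it was 0.45 ± 0.29 at 6 °C (adjusted p = 0.204), which passed without 30 °C mouse 1 (0.79, adjusted p = 0.0198). It was -0.61 ± 0.30 at 22 °C (adjusted p = 0.118), which passed without mouse B (-0.80, adjusted p = 0.0436).

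Abcc8 had 2.64, 6.02, 2.97 and 5.35 CPM in 6 °C mice 1 to 4, 0.792 to 1.37 CPM at 22 °C and 0.977 to 1.97 CPM at 30 °C. It was higher at 6 °C than at 22 °C by 2.02 ± 0.32 (adjusted p = 0.00052) and than at 30 °C by 1.32 ± 0.30 (adjusted p = 0.00244) on the log2 scale. Kcnj8, best known from vascular smooth muscle, had 30.9, 29.7, 31.2 and 25.3 CPM in 6 °C mice 1 to 4, 21.8, 23.6, 18.3 and 22.5 CPM in 22 °C mice 1 to 4, and 24.5, 27.7, 18.8 and 34.2 CPM in 30 °C mice 1, 2, A and B. It was higher at 6 °C than at 22 °C by 0.45 ± 0.15 (adjusted p = 0.0366). This call rested on single libraries, with adjusted p of 0.06 to 0.0918 when 6 °C mouse 1, 2 or 3 or 22 °C mouse 1, 3 or 4 was left out. The value was 0.39 (adjusted p = 0.0873) with total counts as the scale. Without mouse A it was also lower at 22 °C than at 30 °C (-0.42, adjusted p = 0.0169, beside -0.29 with adjusted p = 0.14 in all libraries). Abcc9 averaged 76.9 ± 6.23, 55.3 ± 4.19 and 67.6 ± 7.16 CPM at 6, 22 and 30 °C (SD, n = 4 each) and was higher at 6 °C than at 22 °C by 0.47 ± 0.09 (adjusted p = 0.00179). Markers of pericytes and smooth muscle, the cells in which Kcnj8 and Abcc9 are best known, summed to 814 to 876 CPM at 6 °C, 818 to 1021 CPM at 22 °C and 1024 to 1256 CPM at 30 °C.

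Kcnj15, an inward rectifier known from kidney and other epithelia, was higher at 6 °C than at 30 °C. It had 11.3, 10.1, 9.02 and 13.3 CPM in 6 °C mice 1 to 4, 5.89, 2.74, 14.0 and 5.50 CPM in 22 °C mice 1 to 4, and 5.45, 2.65, 5.24 and 2.65 CPM in 30 °C mice 1, 2, A and B. The 6 °C and 30 °C mice did not overlap, and 22 °C mouse 3 lay above all others. The log2 fold change at 6 °C against 30 °C was 1.44 ± 0.43 (2.72-fold, adjusted p = 0.0139), and 1.43 with an adjusted p of 0.078 without mice A and B. Kcnj15 differed at 6 °C against 22 °C by 0.59 ± 0.42 (adjusted p = 0.295) in all libraries and by 1.22 (adjusted p = 0.0159) without 22 °C mouse 3. Between 22 °C and 30 °C the change was 0.85 ± 0.43 (adjusted p = 0.131), and 1.10 (adjusted p = 0.0342) without 22 °C mouse 2. Of its exon length 5.27% lies under Gm49643 on the opposite strand.

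Kcnj2 and Kcnj12, strong inward rectifiers of muscle and heart, were lowest and highest in the libraries with the least and the most muscle marker RNA. Kcnj2 had 2.15, 1.34, 0.283 and 1.47 CPM in 6 °C mice 1 to 4, 1.73, 0.954, 3.78 and 2.64 CPM in 22 °C mice 1 to 4, and 11.5, 2.29, 5.72 and 3.18 CPM in 30 °C mice 1, 2, A and B. It was lowest in 6 °C mouse 3 and highest in 30 °C mouse 1, the libraries with the lowest (37.8 CPM) and highest (5358 CPM) sums of muscle markers. Its log2 fold change at 6 °C against 30 °C was -2.13 ± 0.64 (adjusted p = 0.0146), -1.53 (adjusted p = 0.0422) without 30 °C mouse 1, and -1.27 (adjusted p = 0.0567) with the muscle marker sum as a covariate. The channel genes with their lowest level in 6 °C mouse 3 and their highest in 30 °C mouse 1 were Kcna7, Kcnc4, Kcnj10, Kcnj12, Kcnj2, Kcnma1 and Kcnq5. How many of all genes had these extremes was not counted. Kcna7, a pore of skeletal and heart muscle, had 3.78, 1.27, 0.495 and 2.99 CPM in 6 °C mice 1 to 4 and 11.5 CPM in 30 °C mouse 1. It passed no test, nor did Kcnj12 and Kcnma1. None of the 16 muscle markers was called at 6 °C against 30 °C (all genes: 56.8%), 22 °C against 30 °C (44.6%) or 6 °C against 22 °C (34.2%). Their median log2 fold changes there were -1.36, -0.42 and -0.95. Their sum ranged from 37.8 to 1951 CPM among the 6 °C mice alone, so the lack of calls does not show equal levels.

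Kcnc4, a fast pore also found in skeletal muscle, had 1.18, 0.435, 0.248 and 0.525 CPM in 6 °C mice 1 to 4, 0.990, 1.25, 1.34 and 3.12 CPM in 22 °C mice 1 to 4, and 3.59, 1.53, 1.44 and 1.70 CPM in 30 °C mice 1, 2, A and B. It fell at 6 °C against 30 °C by 1.80 on the log2 scale (SE 0.50, adjusted p = 0.00861), and by 0.99 with the muscle covariate (adjusted p = 0.0159). The change of -1.5 ± 0.51 at 6 °C against 22 °C (adjusted p = 0.038) was lost with the muscle covariate (-0.79, adjusted p = 0.0671) and without 6 °C mouse 2, 3 or 4 or 22 °C mouse 3 or 4 (-1.03 to -1.59, adjusted p of 0.0517 to 0.124). Kcnj10, an inward rectifier of glia with at most 0.542 CPM, reached 10 counts in 0 of 4 libraries at 6 °C, 2 of 4 at 22 °C and 4 of 4 at 30 °C, so that it too entered the test through the group where it was high. As a description, with no test, its log2 fold change at 6 °C against 30 °C was -1.88. With the muscle covariate the calls of Kcna1 (adjusted p = 0.0725), Kcna2 (0.114), Kcnab3 (0.0803), Kcnrg (0.0622) and Kcnj8 (0.0958) at 6 °C against 22 °C were also lost. So were those of Kcns3 (0.106), Kcnab3 (0.0729) and Kcnrg (0.0766) at 6 °C against 30 °C. The covariate also lowered the calls over all genes at 6 °C against 22 °C, from 2511 higher and 2580 lower to 1823 and 1884. Over all alternative fits the log2 fold change at 6 °C against 22 °C was 0.39 to 0.51 for Kcnj8 and -0.72 to -0.50 for Kcna1. It was -0.70 to -0.43 for Kcnab3 and -1.85 to -1.25 for Kcnrg, and that of Kcna2 was -0.89 with the covariate.

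Kcnn4 and Kcnab2 were lowest at 22 °C. Kcnn4 encodes a calcium-activated pore known from lymphocytes, macrophages and red cells, and Kcnab2 a cytoplasmic subunit of voltage-gated pores. Kcnn4 had 3.25, 3.58, 1.45 and 1.52 CPM in 6 °C mice 1 to 4, 0.742, 0.477, 0.660 and 0.396 CPM in 22 °C mice 1 to 4, and 2.03, 2.37, 9.38 and 6.49 CPM in 30 °C mice 1, 2, A and B. Kcnab2 had 4.06, 5.08, 2.55 and 2.78 CPM in 6 °C mice 1 to 4, 0.990, 0.656, 0.967 and 0.748 CPM in 22 °C mice 1 to 4, and 3.49, 2.85, 10.3 and 9.80 CPM in 30 °C mice 1, 2, A and B. For both genes all 22 °C mice lay below all others, as they did for Kcnk6 and in 5.09% of all tested genes, and mice A and B were highest.

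The log2 fold change of Kcnn4 was -3.12 ± 0.54 at 22 °C against 30 °C (adjusted p = 0.000733) and -1.91 without mice A and B (adjusted p = 0.0046). At 6 °C against 22 °C it was 2.07 ± 0.55 (adjusted p = 0.0126). The log2 fold change of Kcnab2 was -2.95 ± 0.44 at 22 °C against 30 °C (adjusted p = 0.000291) and -1.88 without mice A and B (adjusted p = 0.00103). It was 2.08 ± 0.44 at 6 °C against 22 °C (adjusted p = 0.00408). Neither gene passed the test at 6 °C against 30 °C (-1.05 with adjusted p = 0.0801 for Kcnn4, -0.87 with adjusted p = 0.0779 for Kcnab2). Both passed it without 30 °C mouse 1 (-1.31 with adjusted p = 0.0241 and -1.08 with adjusted p = 0.0303) or without 30 °C mouse 2 (-1.28 with adjusted p = 0.037 and -1.12 with adjusted p = 0.0165). Without mice A and B the values were 0.17 and 0.21. Of the 14 macrophage markers, 13 were lower at 22 °C than at 30 °C (all genes: 22.8%) and 11 were lower at 6 °C than at 30 °C (31.5%). At 6 °C against 22 °C 6 of them were higher (all genes: 16.9%) and 1 was lower (17.4%). The markers of T and natural killer cells summed to 5.61 to 12.1 CPM at 6 °C, 3.34 to 5.28 CPM at 22 °C and 14.8 to 32.8 CPM at 30 °C. The part of these cells in the results of Kcnn4, Kcnab2, Kcnk13 and Kcnk6 was not tested.

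**Figure D5:**
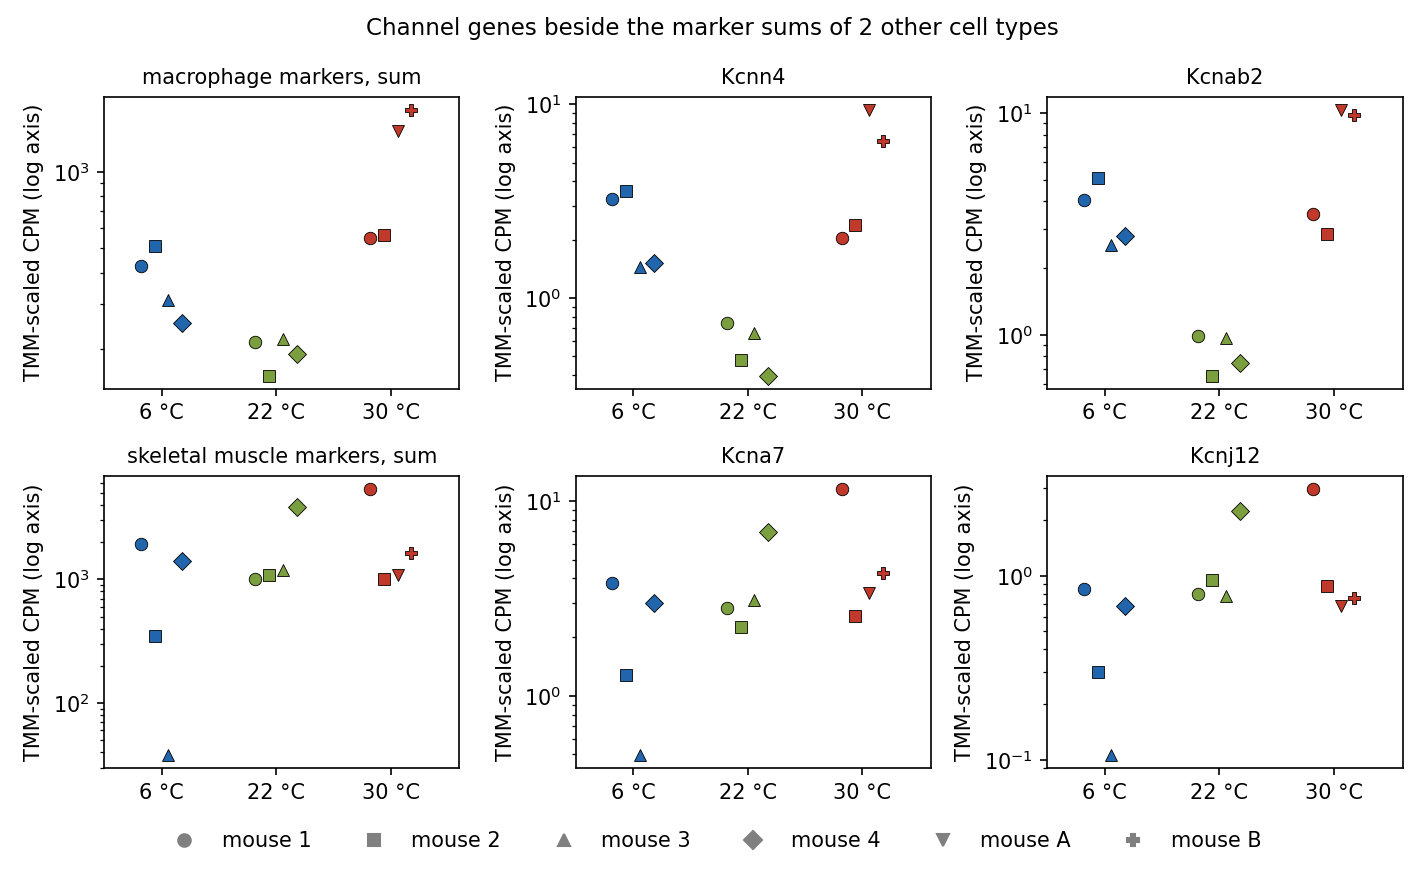
Level in each mouse (TMM-scaled CPM, log axes) of Kcnn4 and Kcnab2 beside the sum of 14 macrophage markers (top), and of Kcna7 and Kcnj12 beside the sum of 16 skeletal muscle markers (bottom). Mice A and B at 30 °C are highest in the top row, and 6 °C mouse 3 is lowest and 30 °C mouse 1 highest in the bottom row.

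Among the remaining calcium-activated pores, Kcnn1, a small-conductance channel of neurons, had 9.34 to 11.3 CPM at 6 °C, 10.3 to 13.9 CPM at 22 °C and 8.22 to 10.2 CPM at 30 °C. Its log2 fold change of 0.34 ± 0.12 at 22 °C against 30 °C (adjusted p = 0.0297) was lost with total counts as the scale (0.09, adjusted p = 0.546) and without 22 °C mouse 1 or 4, 30 °C mouse 2, or mouse A or B (0.26 to 0.35, adjusted p of 0.054 to 0.0949). Kcnma1, the large-conductance pore, and its smooth muscle subunit Kcnmb1 stayed at or below 1.66 and 0.596 CPM. Kcne4, a single-span subunit that damps several voltage-gated pores, had 1.26 to 2.92 CPM at 6 °C, 0.477 to 1.45 CPM at 22 °C and 0.839 to 2.64 CPM at 30 °C. Its log2 fold change at 6 °C against 22 °C was 1.14 ± 0.39 (adjusted p = 0.0386), and the adjusted p was 0.0524 to 0.106 when 6 °C mouse 1, 2 or 3 or 22 °C mouse 1, 2 or 3 was left out. At 22 °C against 30 °C Kcne4 was not called in the fit reported (-0.91, adjusted p = 0.0767). It was called without 22 °C mouse 4 or without mouse A (both -1.15, adjusted p of 0.044 and 0.0221), and with total counts as the scale (-1.17). Kcnrg, with a mean under 1 CPM, was lower at 6 °C than at 22 °C (-1.52 ± 0.42, adjusted p = 0.0143) and at 30 °C (-1.34 ± 0.42, adjusted p = 0.0147).

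Kcnd3, a fast-inactivating pore, had 0.731 to 1.68 CPM at 6 °C, 0.775 to 1.32 CPM at 22 °C and 1.41 to 2.37 CPM at 30 °C. It was lower at 22 °C than at 30 °C by 0.83 on the log2 scale (SE 0.29, adjusted p = 0.0343), with adjusted p of 0.0854 to 0.0918 when 22 °C mouse 1 or 2, 30 °C mouse 2 or mouse B was left out. Kcnd3 differed by -0.70 ± 0.29 at 6 °C against 30 °C (adjusted p = 0.0559), and passed without 6 °C mouse 4 (-0.90, adjusted p = 0.028) or mouse A (-0.83, adjusted p = 0.0381). The neuronal fast pore Kcnc1, and the auxiliary subunits Kcnab1 and Kcne3, passed no test at any pair of temperatures. Their log2 fold changes at 6 °C against 30 °C were -1.08 for Kcnc1, -0.08 for Kcnab1 and -0.52 for Kcne3.

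Other genes of potassium transport, from lists chosen by function, were read in the same fit. Of the 7 tested genes for other channels that pass potassium, 4 were higher (all genes: 25.3%) and 1 lower (31.5%) at 6 °C than at 30 °C. Hcn2, which carries an inward current of sodium and potassium on hyperpolarisation, had 34.6, 44.5, 40.1 and 45.1 CPM in 6 °C mice 1 to 4, 1.43 to 4.01 CPM at 22 °C and 1.74 to 2.65 CPM at 30 °C. Its log2 fold change was 4.19 ± 0.23 at 6 °C against 30 °C and 3.81 ± 0.23 at 6 °C against 22 °C (adjusted p = 7.3e-08 and 1.7e-06), and 0.38 ± 0.23 at 22 °C against 30 °C (adjusted p = 0.21). Lrrc52, an auxiliary subunit of potassium channels studied in mouse sperm, had 1.00 to 3.36 CPM at 6 °C, 0.118 to 0.308 CPM at 22 °C and 0.0599 to 0.241 CPM at 30 °C. It reached 10 counts in 4 of 4 libraries at 6 °C, 1 of 4 at 22 °C and 0 of 4 at 30 °C, and so entered the test through the group where it was high. Of the 4 tested genes among other channel partners, Lrrc52 is given as a description, with no test. The others were not called at 6 °C against 30 °C (all genes: 25.3% higher and 31.5% lower). Of the 11 tested genes of the sodium-potassium pump, which restores the potassium that channels let out, 2 were higher (all genes: 25.3%) and 4 lower (31.5%) at 6 °C than at 30 °C. Of the 5 tested chloride cotransporters, 1 rose (Slc12a2, which brings potassium in, 1.07 ± 0.15, adjusted p = 5.6e-05) and 2 fell at 6 °C against 30 °C (all genes: 25.3% and 31.5%). Among the 6 genes for kinases and a ligase that regulate potassium transport, Nedd4l rose (0.78 ± 0.14, adjusted p = 0.00037) and Stk39, which phosphorylates chloride cotransporters, fell (-1.57 ± 0.14, adjusted p = 1.8e-06). Of the 8 tested voltage-gated calcium pores, 1 was higher (all genes: 25.3%) and 4 were lower (31.5%) at 6 °C than at 30 °C.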

How the data were processed

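Per the labels, RNA sequencing libraries of brown fat from 12 mice were made. The authors deposited raw read counts per gene, with no normalisation. Per the submitters' processing notes, the tools used include FastQC 0.10.1, STAR 2.4.2a and edgeR 3.14.0, with GRCm38 and mm10 as builds, whose roles are not stated. Which program counted the reads, against which annotation and with which strand setting, is not given in the sources used here. Overlapping genes of opposite strands may therefore share reads.

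From the deposited counts, edgeR 4.0.16 (R 4.3.3) was run on all 12 libraries: filterByExpr by temperature (14870 genes kept), TMM scaling, glmQLFit with robust estimation on 1 factor of 3 temperatures, and two-sided glmQLFTest with Benjamini-Hochberg adjustment over all tested genes. SE is the log2 fold change over the square root of F. The difference of the steps is the log2 fold change at 6 over 22 °C minus that at 22 over 30 °C. Positions (1-based) and exon lengths come from GENCODE M21 (GRCm38). At the lowest total of 18290162 counts, low genes rest on few reads, and SDs over 4 mice cover the spread between mice. Every pair of libraries of 1 temperature differed beyond sampling noise (lowest ratio of chi-square to degrees of freedom 20.9), and each was counted once. Pairs with 22 °C mouse 3 gave ratios of 58.4 to 93.4, and the remaining 22 °C pairs 20.9 to 31.3. The ratios were 23.5 to 34.1 at 6 °C and 28.5 to 63.3 at 30 °C.

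The channel genes, gene lists and tests were chosen with earlier results of these data known. Values by mouse were given for Kcnk3 and for genes that changed over the 3 temperatures at a mean of at least 1 CPM (22 genes, of which 20 are shown). Results of a few genes withheld for evaluation are not reported here, though the counts include them. Kcnd2, Kcnj8 and other genes outside this rule were picked after their values were seen. The fit was run on simulated counts with changes set in the 6 °C group, and read at 6 °C against 30 °C only. It recovered 72% of 2-fold rises and 68.1% of falls to 0.5 of the level, with 8 false calls. The alternatives tried were scaling by RLE, upper quartile or total counts, no filter or 1 CPM in 4 libraries, DESeq2 1.42.0, limma voom (limma 3.58.1), no robust estimation, leaving out each library or mice A and B, a replicate block, the muscle marker sum as a covariate, only the 8 libraries compared, and an adjusted p under 0.01.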

Additional observations from a re-analysis of the deposited data

Results flagged for a closer look

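Each of 20 channel genes with values by mouse was searched, within each temperature, for 1 mouse whose gap to the others exceeded Dixon's critical value for 4 mice. Of the 60 groups 6 held such a mouse, and chance gives about 1 in 20. Kcng4 had 15.0 CPM in 6 °C mouse 4, beside 4.28 to 5.98 in the other 6 °C mice, and 1.15 CPM in 30 °C mouse 1, beside 0.315 to 0.442 in the other 30 °C mice. Kcnc4 had 3.12 CPM in 22 °C mouse 4 (others 0.990 to 1.34) and 3.59 CPM in 30 °C mouse 1 (others 1.44 to 1.70). Kcna2 had 1.73 CPM in 22 °C mouse 1 (others 2.59 to 2.77) and 3.02 CPM in 30 °C mouse 1 (others 0.959 to 1.26). The mouse set apart was 30 °C mouse 1, which has the highest muscle marker sum (5358 CPM), in 3 of the 6 groups.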

How the results depend on the processing

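At an adjusted p under 0.01 the channel genes called fell to 16 over the 3 temperatures (26 at 0.05), 11 at 22 °C against 30 °C (18), 6 at 6 °C against 22 °C (15) and 5 for the difference of the steps (11). Without mice A and B, 10 genes were called at 22 °C against 30 °C. With the mouse number as a replicate block in the 10 numbered libraries, 6 were called there and 7 for the difference of the steps. Deviations of same-numbered mice had correlations of -0.15 to 0.23 over 8 pairs, within the range of the other pairs (-0.36 to 0.38). Whether such mice share more than a number cannot be told from so few pairs. Leaving out 1 library at a time gave 22 to 27 called over the 3 temperatures, 16 to 20 at 6 °C against 30 °C, 14 to 18 at 22 °C against 30 °C, 10 to 19 at 6 °C against 22 °C and 8 to 11 for the steps. Total counts as the scale moved the median of all genes by -0.32, -0.26 and -0.06 (6 against 30, 22 against 30 and 6 against 22 °C) and gave 5 higher and 19 lower, 4 and 13, and 5 and 9 channel genes, beside 1939 and 7888, 1419 and 6224, and 1996 and 3088 of all genes. The muscle covariate gave 5 higher and 8 lower at 6 °C against 30 °C and 7 and 3 at 6 °C against 22 °C (all genes: 3268 and 3921, and 1823 and 1884). Of 51 called changes of 29 channel genes over the 3 pairs, 25 stayed called at 0.05 in every other fit that tested them, 26 were lost in at least 1 and none changed sign. Of the 51, 29 passed 0.01 in the fit reported, and 23 of the 25 did. The 25 and the 23 include the calls of Kcnd2 and Kcnj10, which entered the test through the group where they were high. For these genes staying called is no support. Of the 36 others, 16 passed in at least 1 other fit. The causes were not tested. Depth limits the channel genes under 1 CPM, which rest on few reads in the smaller libraries.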
